A study of Mus musculus with 16 samples.

Results

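The genes of the proteasome family were examined in lymph node CD8+CD44+ T cells. The family was taken by name, as the rows of the gene table that begin with Psma, Psmb, Psmc, Psmd, Psme, Psmf or Psmg followed by a digit. This gave 48 of the 9428 genes. The name alone chose them, not their levels, and it also takes in Psmc3ip, a cofactor of meiotic recombination that is no proteasome subunit. Inside the family, Psmb8, Psmb9, Psmb10, Psme1 and Psme2 form the immunoproteasome set, and the other 43 genes are referred to as the other members.

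The cells came from C57BL/6 mice aged 16 weeks with melanoma-associated vitiligo, a loss of pigment after the immune response to a melanoma, 45 days after surgery on the tumor. They were sorted as CD8+CD44+, so all groups below share that sort and that disease, and there were no untreated animals. The study held 16 samples, which were 4 lanes of each of 4 libraries: RNA and T cell receptor libraries of lymph node and of skin. The lanes of a library share its cells and were pooled in the deposited table, so expression rests on 1 lymph node library of 3266 cells. The labels do not say how many mice it came from, and skin RNA was not analysed here. Of the 3266 cell barcodes, 2964 were also in the lymph node receptor table and 12 were in the skin receptor table. As cells are not replicates, no difference below was tested, and every interval is a 95% interval that covers counting error only.

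Proteasomes are barrel-shaped proteases that degrade ubiquitin-tagged proteins. Alpha and beta subunits build the barrel, and a cap of ATPase and non-ATPase subunits recognises and unfolds the substrate. In lymphocytes and in cells that have met interferon, the catalytic subunits encoded by Psmb5, Psmb6 and Psmb7 are replaced during assembly by those of Psmb8, Psmb9 and Psmb10, and the activator PA28, encoded by Psme1 and Psme2, can take the place of the cap. This immunoproteasome is known for making peptides that fit MHC class I, the molecule that CD8+ T cells read.

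The family took 83488 of 14556622 UMIs (unique molecular identifiers, each standing for 1 captured RNA molecule), or 0.574%. The immunoproteasome set held 29115 of these, 34.9% of the family's UMIs, and the other members held 54373. A cell had a median of 24 family UMIs, with a range of 0 to 138, and a median of 16 family members with a UMI. Only 6 cells had no family UMI, 57 had none of the immunoproteasome set and 14 had none of the other members. Over all cells every member passed the minimum of 50 UMIs, from Psmc3ip with 74 UMIs to Psme1 with 8756. In the division by clones, which leaves out part of the cells, 47 members passed it. Levels are given as CPM, counts per 1000000 UMIs summed over the cells of a group. CPM are not corrected for gene length and are compared between cells, not between genes.

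The immunoproteasome catalytic genes were widely detected. Psmb8 had a UMI in 87.1% of cells and a level of 583 CPM. For Psmb9 these were 55.6% of cells and 203 CPM, and for Psmb10 51.9% and 181 CPM. The PA28 genes were detected as widely, Psme1 in 85.7% of cells at 602 CPM and Psme2 in 78.3% at 432 CPM. Summed by role, the constitutive catalytic genes Psmb5, Psmb6 and Psmb7 held 329 CPM against 967 CPM for Psmb8, Psmb9 and Psmb10, and these sums carry no length correction. The 7 genes of the alpha ring held 957 CPM and the 4 other beta genes 871 CPM. The 6 ATPases of the cap held 418 CPM, its 11 non-ATPase subunits 796 CPM and the 7 assembly chaperones 250.5 CPM.

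On the build mm10, with GENCODE M21, Psmb9 lies on the minus strand at chr17:34181987-34187764 and Psmb8 on the plus strand at chr17:34197721-34201454, inside the MHC region. Between them lies Tap1, at chr17:34187553-34197225, and Tap2 follows Psmb8 at chr17:34203527-34216321. Tap1 and Tap2 encode the transporter that carries peptides into the endoplasmic reticulum. Psmb10 lies elsewhere, at chr8:105935735-105938444. Psme1 and Psme2 are neighbours at chr14:55578123-55581529 and chr14:55587441-55591113.

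RefSeq promoter windows on GRCm38.p6, from 250 bases before a start to 50 bases after it, were matched for 41 of the 48 members. They were searched on both strands for GAAANNGAAA, the core of the interferon-stimulated response element, and for TTCNNNGAA, the gamma-activated sequence known from promoters of genes induced by interferon-gamma. GAAANNGAAA was in 5 of the 41 promoters (Psmd4, Psmd9, Psmb3, Psmg4 and Psme1) and in 3.99% of all 27025 promoters. TTCNNNGAA was in 3 (Psmd2, Psmg1 and Psmb8) and in 9.55% of all. In the immunoproteasome set Psme1 and Psmb8 had 1 match each and Psmb9, Psmb10 and Psme2 had none. The windows of 3 genes are printed, those of Psmb8 and Psme1, which had a match, and that of Psmb9, which is followed through the comparisons below. Capitals mark the match, and the Psmb9 window has none.
Psmb8, chr17:34197945-34198244, plus strand: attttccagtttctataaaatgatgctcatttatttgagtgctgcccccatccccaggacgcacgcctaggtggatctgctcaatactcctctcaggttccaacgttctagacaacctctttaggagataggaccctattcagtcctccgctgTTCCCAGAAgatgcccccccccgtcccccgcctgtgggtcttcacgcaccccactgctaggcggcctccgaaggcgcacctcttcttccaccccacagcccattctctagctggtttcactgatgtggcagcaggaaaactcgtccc
Psmb9, chr17:34187281-34187580, minus strand: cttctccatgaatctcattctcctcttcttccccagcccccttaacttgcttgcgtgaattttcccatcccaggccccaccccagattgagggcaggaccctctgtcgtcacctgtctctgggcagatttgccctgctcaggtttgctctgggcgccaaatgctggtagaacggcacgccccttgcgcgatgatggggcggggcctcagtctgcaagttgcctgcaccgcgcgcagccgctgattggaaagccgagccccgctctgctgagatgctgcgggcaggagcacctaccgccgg
Psme1, chr14:55578244-55578543, plus strand: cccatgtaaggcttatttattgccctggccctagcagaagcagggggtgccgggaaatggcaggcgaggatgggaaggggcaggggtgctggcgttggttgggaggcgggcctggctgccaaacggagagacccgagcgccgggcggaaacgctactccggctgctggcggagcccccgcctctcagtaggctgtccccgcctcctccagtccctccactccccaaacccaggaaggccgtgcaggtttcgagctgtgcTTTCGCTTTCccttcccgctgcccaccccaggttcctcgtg

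The match in the Psmb8 window starts 97 bases before the annotated start. The match in the Psme1 window is read on the minus strand and starts at base 10 after the start. The Psmb9 window shares 275 bases, chr17:34187306-34187580, with the promoter window of Tap1, which runs the other way. These matches describe the letters of the windows and not binding, and GENCODE also annotates these 3 genes from starts upstream of the windows.

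The first comparison divided the cells by Isg15, a ubiquitin-like gene induced by interferon. Cells with an Isg15 UMI had more immunoproteasome RNA than cells without one, while the constitutive catalytic genes and the cap were close to level. There were 477 cells with Isg15 (14.6%) and 2789 without. The immunoproteasome set was at 2269 CPM (2209 to 2329) in cells with Isg15 and at 1946 CPM (1921 to 1971) in cells without, a ratio of 1.17 (1.13 to 1.20). The other members were at 3847 and 3713 CPM, a ratio of 1.04 (1.01 to 1.06). The set therefore made up 37.1% (36.3 to 37.9) of family UMIs in cells with Isg15 and 34.4% (34.0 to 34.7) in cells without, and these intervals do not overlap.

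All 5 genes of the set were higher in cells with Isg15. Psmb9 was at 242 against 195 CPM, a ratio of 1.24 (1.13 to 1.36). Psmb10 was at 216 against 174 CPM, also 1.24 (1.13 to 1.37), and Psmb8 at 666 against 566 CPM, 1.18 (1.11 to 1.24). Psme1 was at 664 against 589 CPM, 1.13 (1.07 to 1.19), and Psme2 at 481 against 422 CPM, 1.14 (1.07 to 1.21). None of the 5 intervals includes 1. The order among them differed by setting. In the 3090 cells with at least 1500 UMIs, thinned to 1500 each and divided anew into 217 cells that still had an Isg15 UMI and 2873 that did not, the ratios of Psmb8 and Psmb9 were 1.09 (0.946 to 1.26) and 1.03 (0.796 to 1.31). Those of Psmb10, Psme1 and Psme2 were 1.54 (1.22 to 1.93), 1.27 (1.11 to 1.45) and 1.24 (1.05 to 1.45). When the cells were put in 3 equal depth classes by total UMIs, Psme1 had the highest ratio of the 5 in the low class, 1.48 (1.28 to 1.69), and was at 1.02 (0.94996 to 1.10) in the high class.

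The constitutive catalytic genes did not show this difference, and the intervals of all 3 include 1. Psmb5, which Psmb8 replaces, had a ratio of 0.938 (0.836 to 1.05). Psmb6, replaced by Psmb9, had 1.01 (0.891 to 1.14), and Psmb7, replaced by Psmb10, had 1.04 (0.839 to 1.29). Summed, the immunoproteasome catalytic genes had a ratio of 1.20 (1.15 to 1.253) and the constitutive ones 0.978 (0.905 to 1.06).

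Among the other roles, the rings of the barrel were slightly higher. The alpha ring had a ratio of 1.09 (1.05 to 1.14), with 7 of 7 genes above 1, and the other beta genes 1.06 (1.01 to 1.11), with 4 of 4. Psma1, an alpha ring subunit, was at 87.1 against 72.6 CPM, 1.20 (1.03 to 1.40). The ATPases had a ratio of 0.999 (0.933 to 1.07), with Psmc2 at 1.15 (0.966 to 1.37). The non-ATPase subunits had 1.01 (0.966 to 1.06) and the assembly chaperones 0.977 (0.894 to 1.07). The chaperone genes Psmg1 and Psmg4 had 2 of the 3 lowest ratios, 0.819 (0.614 to 1.08) and 0.837 (0.686 to 1.01). Psme4, which encodes the activator PA200, had the lowest, 0.663 (0.388 to 1.07), and Psmc3ip had 1.37 (0.733 to 2.41) on 74 UMIs.

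In size these were small differences, and the counts past each limit are set beside those of all genes. As members and genes at large were not matched for UMIs, no difference is read from the shares past a limit. Of the 9037 genes with at least 50 UMIs, 2.64% were at least 1.5-fold higher in cells with Isg15, and 0 of the 48 members were. A ratio at least 1.5-fold lower was seen for 3.94% of genes and for 1 member, Psme4. At a limit of 25% higher these were 9.62% of genes and 1 member, Psmc3ip. At 1.1-fold, a limit chosen after seeing the data, 24.9% of genes were higher, against 14 of 48 members, among them 5 of 5 of the set and 9 of 43 others. A ratio above 1 was found for 48.4% of genes and for 33 members. The median ratio was 0.993 over all genes, 1.18 over the set and 1.05 over the other members.

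**Figure D1:**
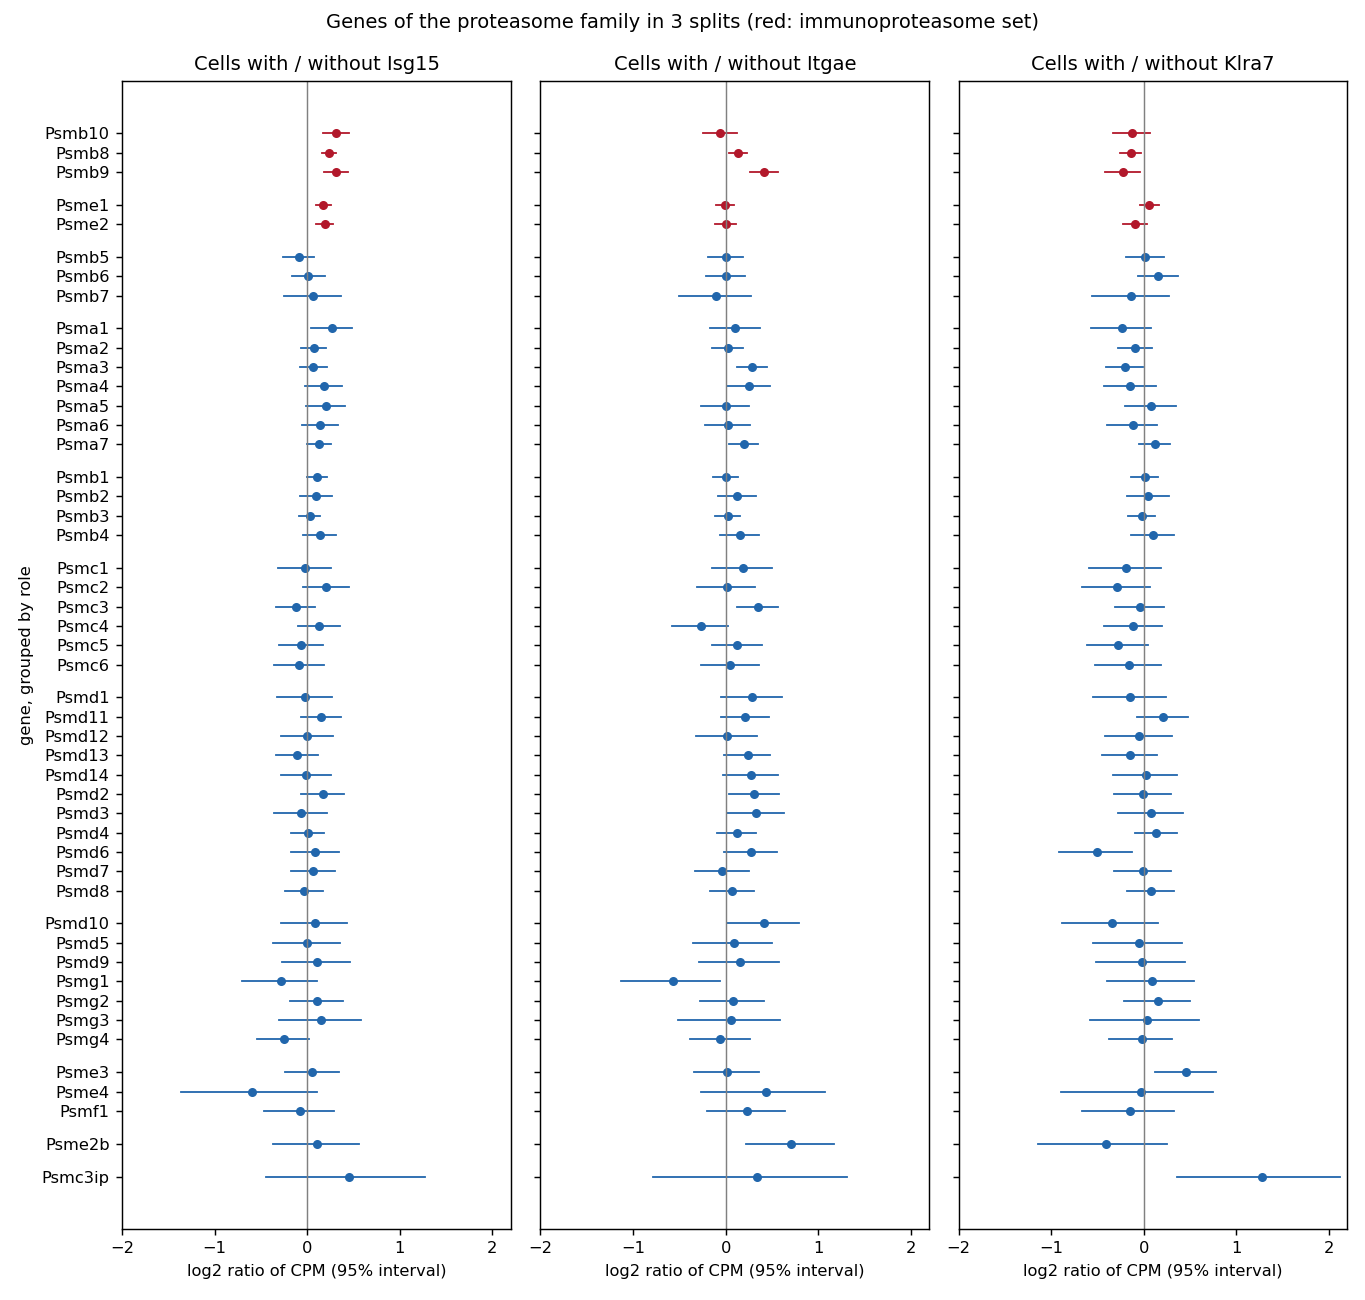
Log2 ratio of the summed level (CPM) of each of the 48 members, with 95% counting intervals, in cells with against cells without Isg15, Itgae or Klra7, grouped by role with the immunoproteasome set in red. In the Isg15 panel all 5 red intervals lie above 0. Among the red genes, the intervals of Psmb9 and Psmb8 lie above 0 in the Itgae panel and below 0 in the Klra7 panel.

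The level of the set was also read against the number of Isg15 UMIs in the cell. It was 1946 CPM at 0 UMIs (2789 cells), 2163 at 1 (300 cells), 2258 at 2 to 3 (109 cells), 2520 at 4 to 9 (55 cells) and 3179 at 10 or more (13 cells). Each step was higher than the one before. The intervals overlap between 1 and 2 to 3 UMIs and between 2 to 3 and 4 to 9. The last step rests on 13 cells, and without it the highest level was 1.29-fold that of cells without Isg15, in place of 1.63-fold. The other members did not follow the same steps, at 3713, 3777, 3926, 3739 and 4826 CPM. The set's share of family UMIs was 34.4, 36.4, 36.5, 40.3 and 39.7%.

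The point values of Psmb8, Psmb9 and Psmb10 were higher at each step of Isg15 UMIs. Apart from the first step of Psmb8, the intervals of neighbouring steps overlap for these genes. From 0 to 10 or more UMIs, Psmb8 was at 566, 643, 666, 740 and 776 CPM. Psmb9 was at 195, 221, 236, 323 and 351 CPM, and Psmb10 at 174, 199.9, 211, 248 and 383 CPM. Psme1 and Psme2 were flat over one of the steps. Psme1 was at 589, 639, 687, 685 and 872 CPM, and Psme2 at 422, 460.4, 458, 525 and 797 CPM. Median UMIs per cell also went up along these steps, from 4360 to 6832, and the part of depth in the steps was not tested. Over all cells the set was at 2065, 2004 and 1973 CPM in the low, middle and high depth class.

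**Figure D2:**
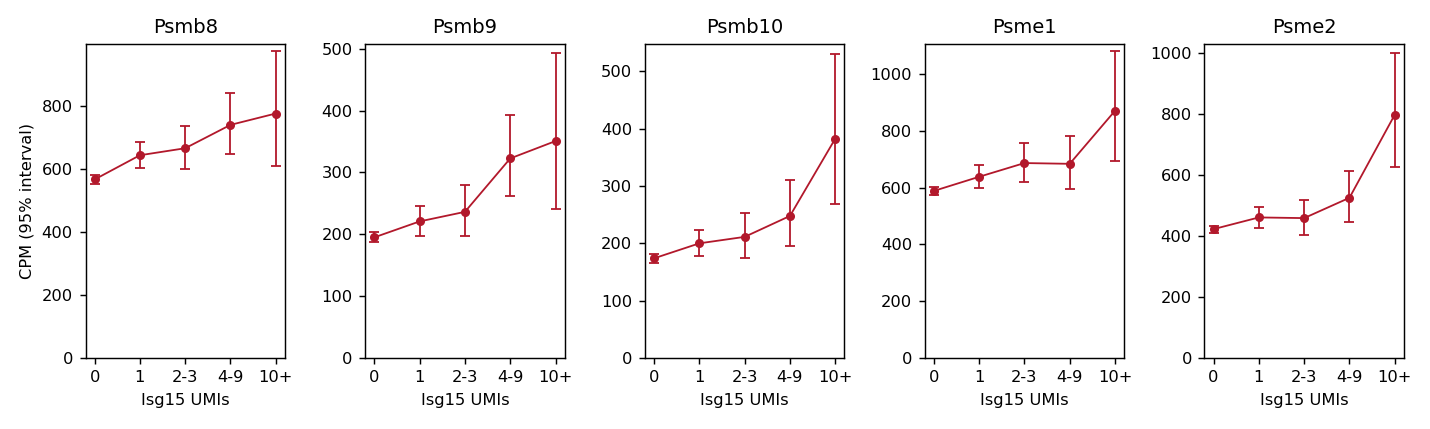
Level (CPM, with 95% counting intervals) of the 5 immunoproteasome genes in cells grouped by their number of Isg15 UMIs. The point values of Psmb8, Psmb9 and Psmb10 are higher at each step, but most intervals of neighbouring steps overlap. The last step holds 13 cells.

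Within each depth class the set was higher in cells with Isg15, with ratios of 1.30, 1.19 and 1.13 from the low to the high class, against 1.10, 1.05 and 1.02 for the other members. Barcodes with 2 or more TRB sequences, a sign of doublets, made up 71 of the 477 cells with Isg15 and 244 of the 2789 without. The set's ratio was 1.19 without them. Markers of other cell types were also compared. The 7 B cell markers in the table of 10 listed summed to 275 CPM in cells with Isg15 and 226 in cells without, a ratio of 1.22 (1.12 to 1.32). Cd74 had the highest ratio among them, 2.43 (1.93 to 3.06), while Cd79a and Ms4a1 were absent from the table. The 4 myeloid markers of 9 summed to 101 and 95.3 CPM, and Csf1r, Itgam, C1qa, S100a8 and S100a9 were absent. The 2 NK cell markers of 4 summed to 141 and 112 CPM, a ratio of 1.26 (1.12 to 1.42), with 1 gene above 1 and 1 below. Cd40lg, the only CD4 T cell marker of 3 in the table, was at 13.1 and 6.85 CPM, 1.91 (1.23 to 2.90). The part of these markers in the result was not tested. The sort genes Cd3e, Cd8a, Cd8b1 and Cd44 were present on both sides, with ratios of 1.02, 1.14, 1.004 and 0.953, and Cd4 and Foxp3 were not in the table.

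Genes that work with the proteasome were compared in the same way. Tap1 was at 126 against 99.2 CPM in cells with Isg15, a ratio of 1.27 (1.12 to 1.44). Nlrc5, the transactivator of MHC class I genes, had 1.39 (1.15 to 1.67), and the median over 12 antigen presentation genes was 1.11, with 10 above 1, where 48.4% of all genes were above 1 and their median was 0.993. The lowest of that list were Canx, a chaperone of the endoplasmic reticulum, at 0.928 and the tapasin relative Tapbpl at 0.959. Of 17 proteasome partners outside the name rule 7 were above 1, with a median of 0.953. Pomp, the assembly factor of the barrel, was highest with 1.11 (1.004 to 1.23), and Uchl5 and Ubqln1, a deubiquitinase of the cap and a shuttle of ubiquitinated proteins, were lowest with 0.804 each. The interferon response list, 14 genes besides Isg15, had a median of 2.89, with 14 of 14 above 1. The 8 genes of the chaperonin, a cytosolic protein-folding complex taken for comparison, had a median of 1.06, with 7 above 1, and 8 of 8 proliferation genes were above 1, with a median of 1.28.

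To place Isg15 among other genes, every gene with a UMI in 5 to 50% of cells was used in turn to divide the cells, 5893 genes without the members, in a description added after seeing the data. The set's ratio had a median of 1.01 over these genes, and 0.910 to 1.17 was its whole range. Ifit3 and Isg15, at 1.17 each, and Ifit1, at 1.16, came first, and all 3 are interferon-induced. For the other members Isg15 came at place 923, at 1.04, and the first was Nefh, a neurofilament gene, at 1.13. Of the 14 genes of the interferon response list in this frequency range, 10 were among the 100 highest for the immunoproteasome set, and 0 were among the 100 highest for the other members. The 100 highest are 1.70% of the genes, so the 0 for the other members is near that share. The 14 include Isg15 itself. For the other members 13 of the 14 were above 1, where the median over all 5893 genes was 1.01. Ifit2 was the one gene of the list below 1 for the set, at 0.978. Of the interferon-gamma list 4 of 8 genes were among the 100 highest, of antigen presentation 1 of 7 (Tap1) and of the chaperonin 0 of 5. Many of these genes share cells, so their places are not independent.

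**Figure D3:**
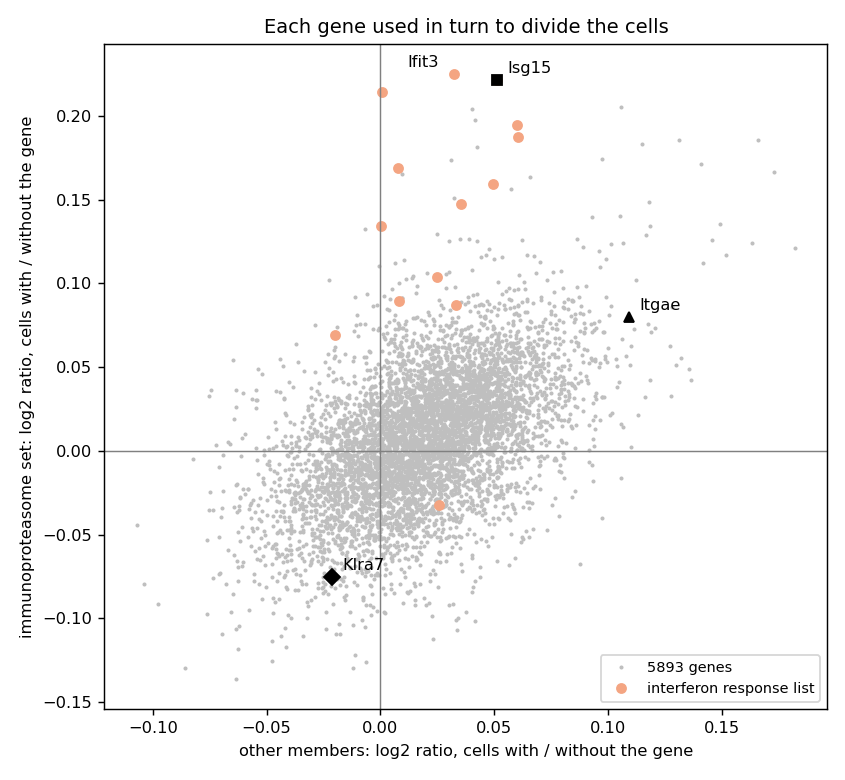
Each point is 1 of 5893 genes, placed by the log2 ratio of the other members (horizontal) and of the immunoproteasome set (vertical) between cells with and without a UMI of that gene. Ifit3 and Isg15 lie at the top, with the interferon response list in orange mostly above the cloud and 1 gene, Ifit2, below 0. Itgae lies to the right and Klra7 at the lower left.

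The second comparison divided the cells by Itgae, which encodes the integrin CD103 of tissue-resident T cells. Cells with Itgae had more Psmb9 and slightly more of the alpha ring and of the non-ATPase part of the cap per UMI, but the family as a whole was lower once set against the typical gene. There were 384 cells with Itgae (11.8%) and 2882 without. The set was at 2101 against 1988 CPM, a ratio of 1.06 (1.02 to 1.10), and the other members at 3994 against 3703 CPM, 1.08 (1.05 to 1.11). Its share of family UMIs was 34.5% (33.5 to 35.4) in cells with Itgae and 34.9% (34.6 to 35.3) in cells without, with overlapping intervals. Ribosomal protein genes took 35.9% of UMIs in cells with Itgae and 43.1% in cells without, and the median gene had a ratio of 1.16. Relative to the median gene the set was at 0.912 and the other members at 0.931. With ribosomal protein genes left out of the total, a scaling added after seeing the data, they were at 0.938 and 0.958. The direction of both sums therefore depends on the scaling.

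Psmb9 was the exception in the set. It was at 261 CPM in cells with Itgae and 196 CPM in cells without, a ratio of 1.33 (1.20 to 1.48), and it was the only one of the 5 above the median gene. Psmb8 was at 633 against 577 CPM, 1.10 (1.03 to 1.17). Psmb10 was at 175 against 182 CPM, 0.962 (0.847 to 1.09), Psme1 at 600.1 against 602 CPM, 0.997 (0.932 to 1.07), and Psme2 at 432 CPM on both sides. The median log2 ratio over the set was just below 0, although its summed ratio was above 1. Psmb9 had ratios of 1.18, 1.31 and 1.40 in the low, middle and high depth class. With Itga1, which encodes the integrin CD49a of resident T cells, in place of Itgae, its ratio was 1.06 (0.824 to 1.34). Its level did not go up with the number of Itgae UMIs, at 259, 265 and 261 CPM for 1, 2 to 3 and 4 to 9 UMIs.

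The neighbours of Psmb9 in the MHC region were also higher. Tap1, which shares most of its promoter window with Psmb9, was at 151 against 97.9 CPM, 1.54 (1.34 to 1.77), and Tap2 at 159 against 120.5 CPM, 1.32 (1.15 to 1.51). All 12 antigen presentation genes were above 1, with a median of 1.39, from B2m, the light chain of MHC class I, at 1.20 to Pdia3, a chaperone of peptide loading, at 1.59. Of the proteasome partners 13 of 17 were above 1, with a median of 1.12. Over all genes 73.4% were above 1, with a median of 1.16, so the partners' share was near that of genes at large and their median just below. Nfe2l1, the transcription factor that induces proteasome genes when activity is low, was highest with 1.95 (1.43 to 2.62). The chaperonin was lower, with 1 of 8 genes above 1 and a median of 0.945.

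Among the other members, the roles were not alike. The non-ATPase cap subunits had a ratio of 1.13 (1.07 to 1.20), with 10 of 11 genes above 1. The alpha ring had 1.10 (1.05 to 1.16), with 7 of 7. Both ratios were below the 1.16 of the median gene, and 73.4% of all genes were above 1. The ATPases of the cap had 1.07 (0.9902 to 1.16). The constitutive catalytic genes had 0.993 (0.905 to 1.09) and the PA28 genes 0.998 (0.948 to 1.05). Psme2b, a near copy of Psme2 on chr11:48945354-48946190, had the highest ratio, 1.64 (1.16 to 2.25) at 28.8 against 17.6 CPM. Its reads may be split with Psme2 by the counting, and its ratio was 0.476 (0.0975 to 1.41) with Itga1 in place of Itgae. Psme4 had 1.35 (0.829 to 2.11) and the assembly chaperone Psmd10 had 1.33 (1.01 to 1.74). The lowest were the chaperone Psmg1 at 0.674 (0.458 to 0.962), the ATPase Psmc4 at 0.830 (0.669 to 1.02) and Psmb7 at 0.932 (0.708 to 1.21).

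The counts of members past each limit are given beside the shares of all genes. Members and genes at large were not matched for UMIs, so no difference is read from the shares past a limit. At least 1.5-fold higher were 15.5% of genes and 1 of 48 members, Psme2b, and at least 1.5-fold lower were 3.25% of genes and 0 members. At a limit of 25% higher these were 37.5% of genes and 7 members, of which 1, Psmb9, was in the set. A ratio above 1 was found for 73.4% of genes and 40 members, but only 16 of the 48 were above the median gene. Several cell type markers moved with Itgae, and their part was not tested. The B cell markers summed to 314 against 225 CPM and the myeloid markers to 111 against 94.3 CPM. The NK cell markers summed to 241 against 101 CPM, and Cd40lg was at 35.0 against 4.55 CPM. Of the 2 NK cell markers 1 was at least 1.5-fold higher and 1 at least 1.5-fold lower. Of the 4 B cell markers with enough UMIs 2 were above 1 and 2 below. Cd8a, one of the sort genes, was at 942 against 512 CPM. Mki67, a proliferation gene, had a ratio of 4.99 (2.87 to 8.51).

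The last of the 3 divisions was by Klra7, which encodes an inhibitory receptor of the Ly49 family found on NK cells and on some CD8+ T cells. Cells with Klra7 had slightly less of the immunoproteasome catalytic genes and of the ATPases of the cap, and the rest of the family was near level. There were 262 cells with Klra7 (8.02%) and 3004 without. The set was at 1908 against 2009.8 CPM, a ratio of 0.949 (0.912 to 0.988), and the other members at 3685 against 3740.5 CPM, 0.985 (0.957 to 1.01). The interval of the set's ratio includes 1 under other settings. It was 0.982 (0.943 to 1.02) relative to the median gene, and 0.985 (0.938 to 1.03) with Klra6 in place of Klra7. The set's share of family UMIs was 34.1% (33.0 to 35.2) against 35.0% (34.6 to 35.3). The median gene had a ratio of 0.967, and 25 of the 48 members were above it.

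Psmb9 again had the ratio farthest from 1 in the set. It was at 176 against 206 CPM, 0.854 (0.745 to 0.974). Psmb8 was at 533 against 588 CPM, 0.907 (0.839 to 0.978), Psmb10 at 167 against 182 CPM, 0.916 (0.797 to 1.05), and Psme2 at 407 against 434 CPM, 0.937 (0.858 to 1.02). Psme1 went the other way, at 625 against 599 CPM, 1.04 (0.971 to 1.12). Summed, the immunoproteasome catalytic genes had a ratio of 0.897 (0.845 to 0.952), the PA28 genes 0.998 (0.945 to 1.05) and the constitutive catalytic genes 1.04 (0.941 to 1.14). Within the high depth class the ratio of Psmb9 was 0.965 (0.812 to 1.14), and with Klra6, a related receptor gene, in place of Klra7 it was 0.925 (0.786 to 1.08).

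The neighbours of Psmb9 and Psmb8 were lower as well. Tap1 was at 73.3 against 107 CPM, 0.686 (0.555 to 0.840), and Tap2 at 83.4 against 129 CPM, 0.647 (0.531 to 0.782), the 2 lowest of the antigen presentation list, whose median was 0.885. The interferon response list had a median of 0.710, with 2 of 15 genes above 1, although Isg15 itself was at 74.7 against 70.2 CPM. The proteasome partners and the chaperonin had medians of 0.995 and 1.01.

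Among the other members the ATPases had a ratio of 0.891 (0.813 to 0.975), with 0 of 6 genes above 1, from 0.819 for Psmc2 to 0.968 for Psmc3. The non-ATPase subunits had 0.998 (0.937 to 1.06), and among them Psmd6 had the lowest ratio of the family, 0.701 (0.530 to 0.912), while Psmd11 was at 1.16 (0.953 to 1.39). Psme3, which encodes the nuclear activator PA28 gamma, was at 63.1 against 46.0 CPM, 1.37 (1.08 to 1.72). Psmd10 and Psme2b had 0.788 (0.541 to 1.11) and 0.753 (0.452 to 1.19). Psmc3ip, which is not a subunit, had 2.43 (1.28 to 4.34) on 15 and 59 UMIs, and 0.977 (0.0239 to 5.91) in the thinned cells, divided anew by their remaining Klra7 UMIs. It was the only member at least 1.5-fold higher, as were 3.08% of genes, and at a limit of 25% higher there were 2 members, the other being Psme3, and 9.91% of genes. At least 1.5-fold lower were 9.6% of genes and 0 members, and a ratio below 1 was found for 57.7% of genes and 30 of 48 members. The marker sums were 221 against 236 CPM for B cells, 104 against 95.4 CPM for myeloid cells and 118 against 117 CPM for NK cells. Of the 2 NK cell markers 1 was above 1 and 1 at least 1.5-fold lower. Cd40lg was at 2.18 against 8.50 CPM.

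**Figure D4:**
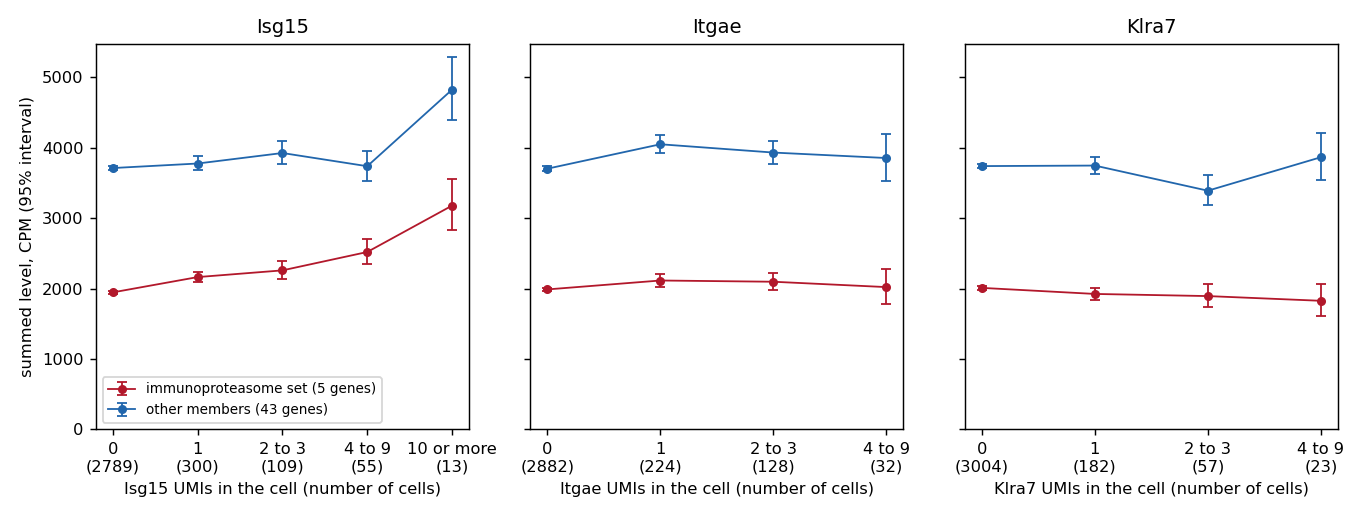
Summed level (CPM, with 95% counting intervals) of the immunoproteasome set (red) and of the other members (blue) in cells grouped by their number of Isg15, Itgae or Klra7 UMIs, with the number of cells in brackets. The red line goes from 1946 to 3179 CPM with Isg15, stays between 1988 and 2114 CPM with Itgae and goes from 2009.8 to 1826 CPM with Klra7.

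The 3 divisions were not of separate cells, but overlapped little. Of the 3266 cells, 66 had both Isg15 and Itgae, 33 had Isg15 and Klra7, 12 had Itgae and Klra7, 3 had all and 2251 had none. They also share most of their comparison cells. Psmb9 and Tap1 were higher in cells with Isg15 and in cells with Itgae and lower in cells with Klra7, whereas Psmb10 was higher with Isg15 alone of the 3, with ratios of 1.24, 0.962 and 0.916. Whether the ratios differ between divisions was not tested.

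The T cell receptor tables gave one more division, between lymph node cells of clones that were also found in skin and cells of clones found in the lymph node alone. Most of the family was poorly resolved here. Of the 48 members 4 had an interval above 1, Psmb9 and 3 outside the set, and 0 had one below 1. The share of all genes with such intervals is not given, and the median gene was itself at 1.21. No direction of the family is therefore read from these counts. There were 28 cells of shared clones with 67509 UMIs, against 2107 cells with 9595107 UMIs. Median UMIs per cell were 2281 and 4556. The set was at 2489 against 2017 CPM, a ratio of 1.23 (1.05 to 1.44), and the other members at 4607 against 3724 CPM, 1.24 (1.10 to 1.38). With clones matched by the TRB sequence alone, which put 49 cells in shared clones, these ratios were 1.09 (0.967 to 1.22) and 1.19 (1.10 to 1.29). The set's share of family UMIs was 35.1% on both sides. Ribosomal protein genes took 23.1% of UMIs in cells of shared clones and 42.8% in the others, and the median gene had a ratio of 1.21. Relative to the median gene the 2 sums were at 1.02 each, and with ribosomal protein genes left out of the total they were at 0.918 and 0.920, so that no direction holds across scalings.

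Psmb9 was at 430 CPM (29 UMIs) in cells of shared clones and at 199 CPM in the others, a ratio of 2.16 (1.45 to 3.12). The median gene was at 1.21, and the ratio of Psmb9 is not given for clones matched by the TRB sequence alone. Tap1 was at 237 against 99.0 CPM, 2.39 (1.36 to 3.91). The intervals of the other 4 genes of the set include 1, with ratios of 1.27 for Psme1, 1.22 for Psmb8, 1.05 for Psmb10 and 0.849 for Psme2. Psmd13 and Psmd11, 2 non-ATPase cap subunits, had the highest ratios of the family, 2.24 each (1.19 to 3.86 and 1.15 to 3.94) on 13 and 12 UMIs. Outside the set the ATPase Psmc1 followed, at 2.11 (0.843 to 4.38), below Psmb9. Psmd1 and Psme3 had 1 UMI each, with ratios of 0.314 (0.00794 to 1.76) and 0.313 (0.00791 to 1.75), and Psme4 and Psmc3ip had 0 UMIs, where 3 counts would be 44.4 CPM. At least 1.5-fold higher were 38.8% of 8398 genes and 14 of the 47 members with 50 UMIs, and at least 1.5-fold lower were 29.0% of genes and 5 members. At a limit of 25% higher these were 48.3% of genes and 22 members. At a limit of 25% the share of the family was near that of all genes. Members and genes at large were not matched for UMIs, so no difference is read from these shares. Itgae was at 726 against 32.5 CPM in the same cells. The NK cell markers summed to 829.5 against 99.8 CPM and the myeloid markers to 207 against 91.8 CPM. The B cell markers summed to 370.3 against 226 CPM, and Cd40lg was at 104 against 5.32 CPM. Of the 2 NK cell markers 1 was at least 1.5-fold higher and 1 at least 1.5-fold lower. Of the 4 B cell markers with 50 UMIs 2 were above 1 and 2 at least 1.5-fold lower. Ighd, H2-Ab1, H2-Eb1 and Tyrobp had 0 UMIs in cells of shared clones. The part of these markers and of the lower depth in the result was not tested.

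The spread of the family from cell to cell was read at equal depth. In the 3090 cells thinned to 1500 UMIs, all 48 members had a mean of 8.66 UMIs and a variance 1.26 times the mean. The immunoproteasome set had a mean of 3.03 UMIs and a variance 1.13 times the mean, and the other members a mean of 5.63 and 1.16 times. The chaperonin had a mean of 1.86 UMIs and a variance 1.08 times the mean. A ratio of 1 is what counting alone would give, and all 4 were above it. The 4 means differ, so these ratios do not rank the sets by their spread. Shares of cells with a UMI were compared in the same cells, divided by Isg15 before thinning. Psmb10 had a UMI in 28.2% (24.2 to 32.6) of thinned cells with Isg15 and 22.2% (20.7 to 23.9) of those without, while for Psmb9 these were 28.7% (24.6 to 33.0) and 26.1% (24.4 to 27.8), with overlapping intervals. Before thinning the shares were 59.96 and 50.5% for Psmb10 and 62.9 and 54.4% for Psmb9.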

How the data were processed

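Single-cell RNA and T cell receptor libraries were made from sorted CD8+CD44+ T cells of lymph node and skin. The deposited gene table covers the lymph node and holds raw UMI counts, whole numbers, for which the authors pooled the lanes. Bowtie and RSEM, and the build mm10, are listed in the submitters' processing notes with no version or role. The table had been reduced before deposit: no cell had over 4.99% mitochondrial UMIs or 2992 genes, and each gene was seen in at least 14 cells. Whether reads shared by near copies were split is not stated. The deposited receptor tables list contigs with UMI counts.

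Counts were summed over the cells of each side and divided by all UMIs of that side. Ratios carry exact conditional binomial intervals, CPM exact Poisson intervals and shares Clopper-Pearson intervals, at 95%. With 1 library there was no test. Genes needed at least 50 UMIs over both sides, and a gene that defined a division was left out of its own comparison. Clones had 1 TRB and 1 or 2 TRA CDR3 nucleotide sequences, taking the contigs with most UMIs, and ties by sequence order. Lymph node barcodes with 2 or more TRB sequences (394, of which 315 in the gene table) were given no clone, and no other doublet call was made. Named genes were the 5 of the immunoproteasome set, the 3 highest and 3 lowest other members, the 2 highest and 2 lowest of each list described, the dividing genes and sort genes. Others were named after their values were seen: Tap1 and Tap2 where they fall outside that rule, the genes leading the division by every gene, and members named for their role.

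The members, divisions and gene lists were chosen with earlier results of these data known. The calculation was tested on summed counts simulated with Poisson error alone. That setting holds no spread between cells, so it tested the arithmetic and not whether the intervals suit these cells. Gene positions are from GENCODE M21, in which all 48 members matched. Alternatives covered the scaling, depth, thinning, thresholds, doublets, single members and substitute dividing genes. Python 3.11.15, NumPy 2.4.6, pandas 2.3.3, SciPy 1.17.1 and matplotlib 3.10.9 were used.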

Additional observations from a re-analysis of the deposited data

How the results depend on the processing

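In cells with Isg15 the log2 ratio of the immunoproteasome set (0.22) stayed above 0 in all 12 alternatives, between 0.18 and 0.38. It was 0.28 after thinning, 0.38 within the low depth class and 0.32 with at least 2 Isg15 UMIs. The other members (0.05) stayed above 0 in 13 of 13, at 0.14 within the low depth class and 0.091 with at least 2 UMIs. The interval includes 0 in 0 of the 11 alternatives that give one for the set, and in 3 of 12 for the other members.

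In cells with Itgae the set (0.08) and the other members (0.11) changed direction under median-of-ratios scaling, at -0.13 and -0.10, and with ribosomal protein genes left out of the total, at -0.092 and -0.062, where by construction the total kept is larger on the side with fewer ribosomal UMIs and its ratios fall. The other members were at 0.16 after thinning, 0.18 and 0.045 within the middle and high depth classes and 0.068 with Itga1 in place of Itgae. The interval includes 0 in 6 of the 11 alternatives that give one for the set, and in 2 of 12 for the other members.

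In cells with Klra7 the set (-0.08) stayed below 0 in 12 of 12, at -0.14 without Psme1, -0.026 (-0.085 to 0.032) under median-of-ratios scaling and -0.022 (-0.093 to 0.048) with Klra6. The interval includes 0 in 9 of the 11 alternatives that give one. The other members (-0.02) crossed 0 in 4 of 13. They were at 0.028 under median-of-ratios scaling, 0.044 after thinning, -0.085 within the low depth class and -0.078 with at least 2 Klra7 UMIs.

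For shared clones the set (0.30) and the other members (0.31) were at 0.029 and 0.033 under median-of-ratios scaling and at -0.12 and -0.12 without ribosomal protein genes. The set was at 0.12 (-0.049 to 0.29) with the TRB sequence alone and 0.21 (-0.13 to 0.54) in the 22 thinned cells. At a limit of 25% higher in place of 1.5-fold, the members counted as higher were 1 with Isg15 (0 at 1.5-fold), 7 with Itgae (1), 2 with Klra7 (1) and 22 for shared clones (14), and with a minimum of 200 UMIs the count with Klra7 was 0. The cause of these shifts, other than the construction named, was not tested. The scaling without ribosomal protein genes, the sums without Psmc3ip and Psme2b and the reversed order of TRA ties were chosen after seeing the data.

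No paired analysis was possible because the lanes of a library share its cells and were pooled in the deposited table. For the same reason the lanes were not left out in turn. Depth limits the members with few UMIs and above all the 28 cells of shared clones. Fewer cells expressing a gene and less RNA per cell cannot be told apart in the sums.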
